A study of Rattus norvegicus with 12 samples.

Results

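The selectins and vascular adhesion molecules described here are 6 genes of leukocyte capture on vessel walls, chosen by symbol: Sele, Selp, Selplg, Icam1, Icam2 and Vcam1. All 6 were among the 17268 genes counted. RNA came from the cerebral cortex of adult male Sprague Dawley rats, in 12 libraries, 3 in each of 4 groups. Each library is taken here as 1 rat. Sham rats had the carotid surgery without a clot, and Model rats had an embolic stroke, in which a clot of rat blood was injected at the origin of the middle cerebral artery. The rt-PA rats had the same stroke and then intravenous recombinant tissue plasminogen activator, the clot-dissolving drug, at 6 h after the stroke. The rt-PA+Acu rats had the stroke, acupuncture at the points GV26 and PC6 at 2 h, and rt-PA at 6 h. The hour and the side of the cortex at which tissue was taken for RNA are not given in the sources used here. There was no stroke group with acupuncture alone, so acupuncture was compared only on top of rt-PA. Values are from whole tissue, in which fewer cells of a type and less RNA per cell cannot be told apart.

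Leukocytes leave the blood in steps. Selectins on activated endothelium catch passing cells by binding sugars carried on proteins such as P-selectin glycoprotein ligand, the leukocyte then arrests when its integrins bind immunoglobulin-family molecules on the vessel wall, and it crawls and crosses. E-selectin (Sele) is made by endothelium after exposure to inflammatory cytokines. P-selectin (Selp) is stored in the Weibel-Palade bodies of endothelium and the granules of platelets and reaches the surface by secretion. That storage concerns the protein and does not say how Selp RNA is controlled. ICAM-1 (Icam1) and ICAM-2 (Icam2) are ligands of the beta-2 integrins, and VCAM-1 (Vcam1) is a ligand of the integrin alpha-4 beta-1. Icam1 and Vcam1 are textbook targets of NF-kappaB, Icam2 is carried by resting endothelium, and Selplg, which encodes P-selectin glycoprotein ligand, is made by leukocytes and, in the brain, by resting microglia.

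Icam1 and Vcam1 moved in opposite directions after stroke, so their upstream sequences are shown side by side. Capitals mark matches to 4 motifs searched on both strands: the NF-kappaB consensus (GGGRNNYYCC), AP-1 (TGANTCA), STAT (TTCNNNGAA) and the TATA box (TATAAA). In these, R is A or G, Y is C or T and N is any base. The sequences are from RefSeq on the GRCr8 build, which is not the build of the counts, and windows of 250 bases before a transcription start were at hand for 3 of the 6 genes (Vcam1, Icam1 and Sele). The Vcam1 window lies at chr2:206742784-206743033 on the minus strand and ends at the annotated start of the gene. The start used for Icam1 lies 157 bases inside the annotated gene, on the plus strand of chromosome 8, so only the 30 bases around each of its matches are printed, chr8:27829728-27829757 and chr8:27829780-27829809.
Vcam1 upstream window: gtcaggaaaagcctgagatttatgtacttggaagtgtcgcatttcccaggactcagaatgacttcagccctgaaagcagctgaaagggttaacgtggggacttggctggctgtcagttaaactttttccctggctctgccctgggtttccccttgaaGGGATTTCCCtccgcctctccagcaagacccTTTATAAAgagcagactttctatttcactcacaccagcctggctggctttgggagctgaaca
Icam1, STAT match: ggcgcgaggtTTCCGGGAAagtggccccaa
Icam1, TATA box match: gtggcccgagacTATAAAagctgcgtgcgg
In the Vcam1 window the NF-kappaB consensus was matched by GGGATTTCCC at 93 to 84 bases before the start, and TATAAA stood at 60 to 55 bases, overlapping a match on the other strand at 62 to 57 bases. In the Icam1 window the STAT pattern was matched at 107 to 99 bases and TATAAA at 53 to 48 bases before the start. Only strings that fit a pattern at every base were counted. The Icam1 window also holds tggaaattcc, which departs from the NF-kappaB pattern at its first base. The Vcam1 window likewise holds gggtttcccc, which departs from it at a single base. A missing match therefore does not show that Icam1 lacks an NF-kappaB site. The start site of the Sele window lies 517 bases inside the annotated gene, and the window held no match to the 4 motifs. Of 33469 windows of this length, 6.33% held the NF-kappaB consensus, 6.34% the AP-1 motif, 7.67% the STAT pattern and 12.9% the TATA box. A match is a string of letters and was not tested for binding.

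Libraries held 11678450 to 13616935 counts, so that 3 counts stood for 0.208 to 0.262 CPM, the unit used below, in which counts are scaled to a common library size with TMM factors that correct for RNA composition. Model replicate 3, rt-PA replicate 2 and rt-PA+Acu replicate 3 differed from the other libraries of their groups by more than those differed from each other. The chi-square per degree of freedom was 21.2 to 37.1 against 13.1 in Model. It was 26.1 to 36 against 17.3 in rt-PA and 37.4 to 53.3 against 20.8 in rt-PA+Acu, while all Sham pairs lay at 9.01 to 13.2. Without rt-PA replicate 2 the call of Selplg in rt-PA+Acu against rt-PA was lost and the others held. Model replicate 3 also carried the Sham level of the ribosomal gene Rpl39, with 142 counts, where Sham had 105 to 151 and the remaining 8 injured libraries 488 to 990. Without Model replicate 3, 4 of the 6 genes were still called in Model against Sham, and without rt-PA+Acu replicate 3, all 6 were still called in rt-PA+Acu against rt-PA. Over all genes, leaving out 1 library at a time gave 2511 to 3133 called in Model against Sham and 1445 to 2510 in rt-PA+Acu against rt-PA. Cortical markers were present in every library, with summed levels of 3830 to 6380 CPM for 7 neuronal genes and 3810 to 7070 CPM for 7 astrocyte genes. In Model against Sham 4 of the 7 astrocyte genes fell and 1 rose, Gfap, from a mean of 391 to 3340 CPM. Over all genes tested, 21.5% were called in that comparison and 15.3% in rt-PA+Acu against rt-PA. The sum of 6 oligodendrocyte genes was 12000 to 17900 CPM in Sham, 1670 to 8500 CPM for Model, 2690 to 11400 CPM for rt-PA and 3210 to 21100 CPM for rt-PA+Acu, with 5 of the 6 lower in Model against Sham and 0 of 6 called in rt-PA+Acu against rt-PA. Within rt-PA+Acu this sum was highest in replicate 1 and lowest in replicate 3, as were Vcam1 and Selplg, and the part of oligodendrocytes in these 2 genes was not tested. A gene was called when edgeR's quasi-likelihood test gave a Benjamini-Hochberg adjusted p under 0.05 over all genes tested and the fold change exceeded 2. These p-values set the difference between groups against the spread between libraries.

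**Figure D1:**
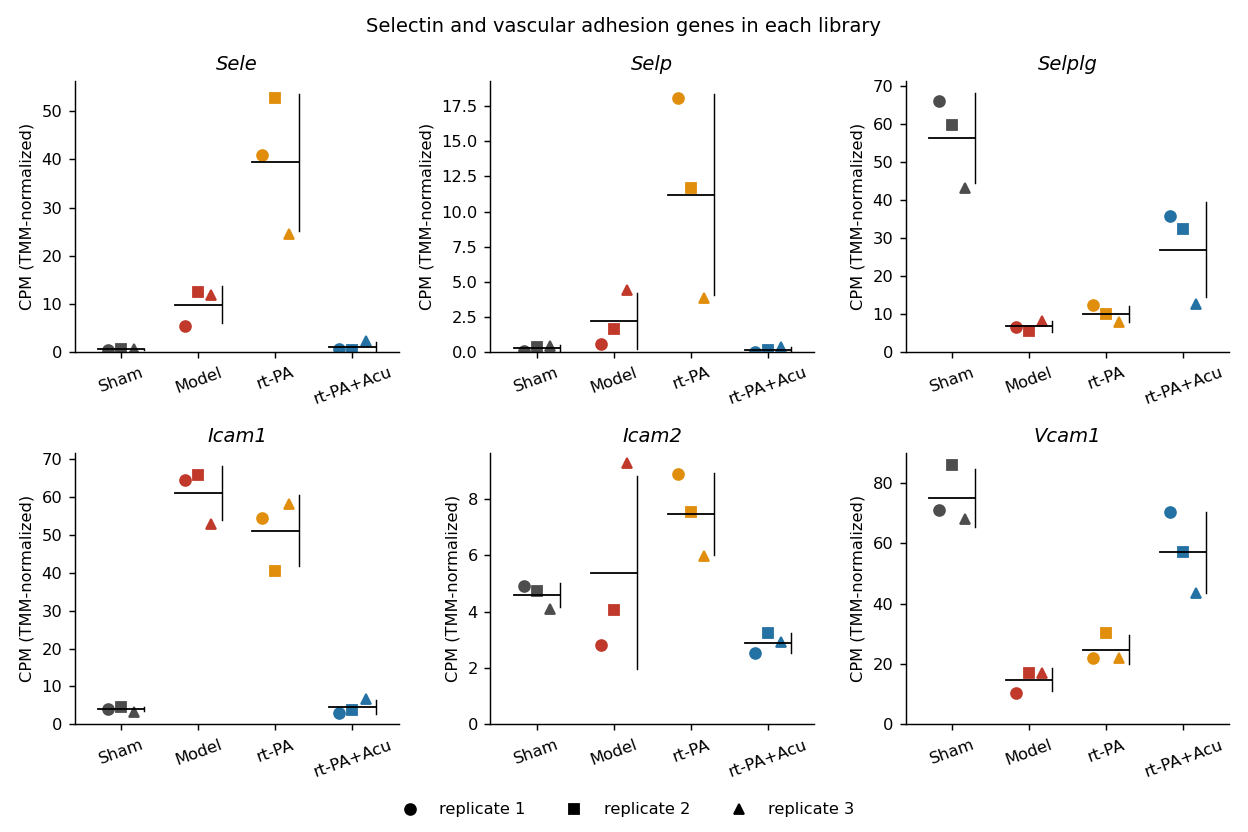
TMM-normalized CPM of the 6 genes in each library, by group, with the group mean as a horizontal bar and 1 SD on either side as the thin vertical bar (n = 3). Sele and Selp stand highest in rt-PA, Icam1 is high in Model and rt-PA alone, and Selplg and Vcam1 are low in those groups and high in Sham.

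Sele was nearly silent in Sham, higher in Model, highest with rt-PA, and close to Sham again in the rats that also had acupuncture. Its level was 0.483, 0.688 and 0.611 CPM in the Sham replicates 1 to 3, and 5.42, 12.4 and 11.8 CPM in Model. The rt-PA libraries held 40.9, 52.7 and 24.5 CPM and the rt-PA+Acu libraries 0.674, 0.524 and 2.39 CPM. Sham, Model and rt-PA did not overlap, and replicates 1 and 2 of rt-PA+Acu lay inside the Sham range. Behind the lowest of these levels were 6 to 9 counts per library in Sham and 8, 6 and 32 counts in rt-PA+Acu.

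Selp, the other endothelial selectin, was likewise highest in rt-PA, followed by Model, at lower depth. Its level was 0.0805, 0.382 and 0.437 CPM in Sham and 0.611, 1.69 and 4.46 CPM in Model. The rt-PA libraries held 18.1, 11.7 and 3.84 CPM and the rt-PA+Acu libraries 0, 0.175 and 0.373 CPM. Model and Sham did not overlap, whereas the highest Model library exceeded the lowest rt-PA library and the rt-PA+Acu range lay within and below that of Sham. The groups rest on 11 counts in all in Sham, 82 for Model, 476 for rt-PA and 7 for rt-PA+Acu. The rt-PA libraries differed among themselves by more for Selp than for Sele. Platelets also make Selp. Of the 9 platelet markers counted, Ppbp, Gp9 and Tubb1 had at most 3 counts in every library, and the summed level of the list was 3.22 to 5.89 CPM in Sham, 7.79 to 11.7 in Model, 6.75 to 10.3 in rt-PA and 3.88 to 4.18 in rt-PA+Acu. The part of platelets in the Selp counts was not tested.

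Icam1 was high in Model and rt-PA alike and low in the other 2 groups. Its level was 4.11, 4.66 and 3.40 CPM in Sham and 64.5, 65.8 and 52.7 CPM in Model. The rt-PA libraries held 54.4, 40.5 and 58.2 CPM and the rt-PA+Acu libraries 3.12, 3.75 and 6.64 CPM. Every Model and rt-PA library stood above every Sham and rt-PA+Acu library, and within each of these 2 pairs the groups overlapped.

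Icam2 spanned a narrower range than Icam1. Its level was 4.91, 4.74 and 4.10 CPM in Sham and 2.82, 4.06 and 9.25 CPM in Model. The rt-PA libraries held 8.88, 7.54 and 5.97 CPM and the rt-PA+Acu libraries 2.53, 3.23 and 2.91 CPM. The Model libraries spread over nearly the whole range of the other groups, with replicate 3 the highest library of the series, while rt-PA lay above and rt-PA+Acu below Sham without overlap.

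Vcam1 ran opposite to Icam1. Its level was 70.9, 86.1 and 68.1 CPM in Sham and 10.4, 17 and 17.1 CPM in Model. The rt-PA libraries held 22.1, 30.3 and 22.0 CPM and the rt-PA+Acu libraries 70.4, 57.1 and 43.4 CPM. Model lay below rt-PA and rt-PA below rt-PA+Acu with no overlap, and rt-PA+Acu replicate 1 reached the Sham range.

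Selplg had the same order as Vcam1 apart from its overlap of Model and rt-PA. Its level was 65.9, 59.7 and 43.0 CPM in Sham and 6.72, 5.50 and 8.18 CPM in Model. The rt-PA libraries held 12.3, 10.1 and 7.97 CPM and the rt-PA+Acu libraries 35.8, 32.3 and 12.8 CPM. All 3 rt-PA+Acu libraries stayed below the lowest Sham library, and replicate 3 was close to the highest rt-PA library.

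What stroke without treatment did to these genes was compared as Model against Sham. Sele was 16.4-fold higher, Icam1 15-fold higher, Selplg 8.22-fold lower and Vcam1 5.05-fold lower. Of the 5 genes that passed the filter on low counts, 2 rose and 2 fell, where 21.5% of all genes tested were called (9.43% higher and 12% lower). The libraries of the 2 groups did not overlap for 5 of the 6 genes, Icam2 being the exception, as for 63.6% of all genes tested. On the log2 scale Sele rose by 4.04 (SE 0.42, 95% CI 3.08 to 4.99, adjusted p = 0.000138) and Icam1 by 3.91 (SE 0.16, 95% CI 3.54 to 4.28, adjusted p = 4.31e-06). Selplg fell by 3.04 (SE 0.21, adjusted p = 2.57e-05) and Vcam1 by 2.34 (SE 0.19, adjusted p = 5.19e-05). Icam2 did not pass, with a log2 fold change of 0.23 (SE 0.41, 95% CI -0.72 to 1.18, adjusted p = 0.66), and without Model replicate 3 the value was -0.41. Selp lay below the filter. Fitted without the filter its log2 fold change was 2.87 (adjusted p = 0.0176), and where leaving out a library let it pass the filter, it was not called without Sham replicate 1 (adjusted p = 0.0668) or 2 (adjusted p = 0.0541) and was called without Sham replicate 3 (adjusted p = 0.046) or Model replicate 1 (adjusted p = 0.00528).

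What late rt-PA added to stroke was compared as rt-PA against Model. None of the 6 genes was called by edgeR, where 0% of all genes tested were called. At an unadjusted p under 0.05 and a fold change over 2, Sele and Selp passed, where 1.86% of all genes did. The log2 fold change of Sele was 2.00 (SE 0.37, 95% CI 1.13 to 2.86, adjusted p = 0.245) with no overlap of libraries, as for 15.9% of all genes, and that of Selp was 2.32 (SE 0.74, 95% CI 0.61 to 4.04, adjusted p = 0.386) with overlap. DESeq2, an alternative model of the same counts, called both, with adjusted p = 1.27e-05 for Sele and 0.0372 for Selp, among 82 genes in all. The difference of Vcam1 was 0.75 (95% CI 0.2 to 1.29, adjusted p = 0.38) and that of Selplg 0.57 (95% CI 0.01 to 1.14, adjusted p = 0.5). For Icam1 it was -0.26 (95% CI -0.62 to 0.11, adjusted p = 0.654), an interval that leaves out a change of 2-fold in either direction. For Icam2 it was 0.48 (95% CI -0.51 to 1.47, adjusted p = 0.767).

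What acupuncture added to late rt-PA was compared as rt-PA+Acu against rt-PA. All 6 genes were called, 4 lower and 2 higher, where 15.3% of all genes tested were called (8.16% lower and 7.17% higher). Selp passed the filter on low counts only in comparisons with rt-PA, where it is highest. Sele passed it only in those with rt-PA or Model, where it is higher than in the other groups. Both thus entered this count through the rt-PA libraries, and their calls are no separate support. Selp was 56.4-fold and Sele 31.7-fold lower, Icam1 was 11.2-fold and Icam2 2.58-fold lower, and Vcam1 was 2.29-fold higher. On the log2 scale Sele fell by 4.98 (SE 0.54, 95% CI -6.23 to -3.74, adjusted p = 0.00139). Selp fell by 5.82 (SE 0.85, 95% CI -7.79 to -3.85, adjusted p = 0.00346), a value that rests on the 7 counts of rt-PA+Acu. Icam1 fell by 3.49 (SE 0.30, adjusted p = 0.00104) and Icam2 by 1.37 (SE 0.25, adjusted p = 0.00698). Vcam1 rose by 1.2 (SE 0.21, 95% CI 0.71 to 1.68, adjusted p = 0.00595) and Selplg by 1.41 (SE 0.37, 95% CI 0.55 to 2.28, adjusted p = 0.0234). The libraries of the 2 groups did not overlap for any of the 6, as for 51.1% of all genes tested. The call of Selplg was lost without rt-PA replicate 2 or 3 and without rt-PA+Acu replicate 1 or 2 (adjusted p = 0.0569, 0.0793, 0.074 and 0.0791), whereas the calls of the other 5 held without any 1 library.

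**Figure D2:**
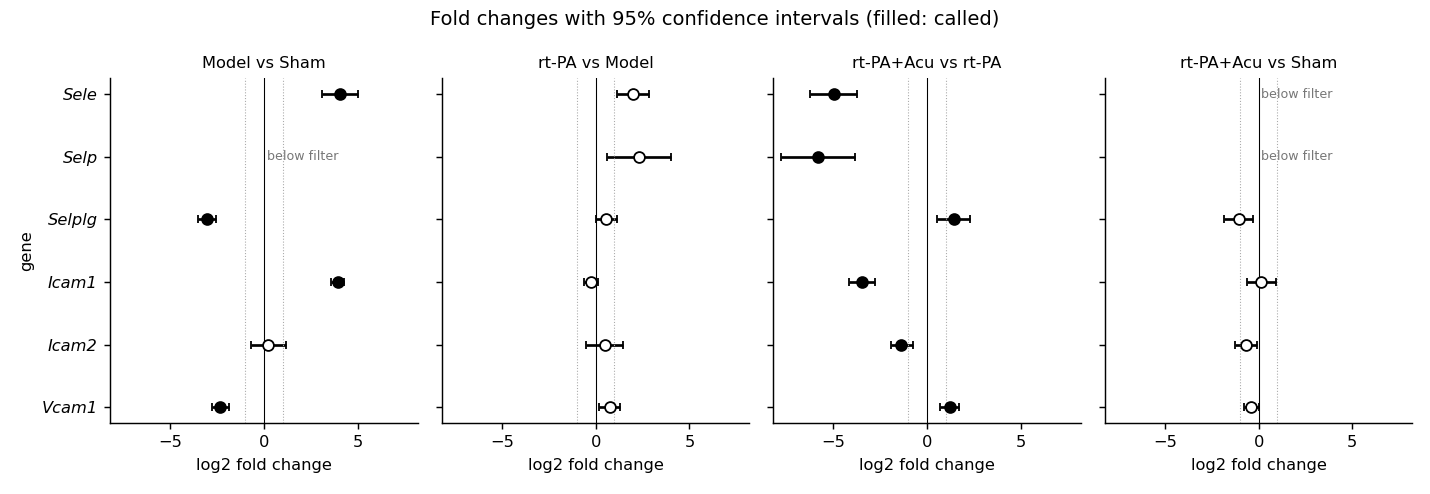
Log2 fold changes of the 6 genes with 95% confidence intervals in 4 comparisons (filled circles are called, open circles are not, dotted lines mark a 2-fold change). Sele, Selp and Icam1 lie far left and Selplg and Vcam1 right in rt-PA+Acu against rt-PA, and the Icam1 interval in rt-PA against Model is narrow around its value of -0.26.

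Set against Sham, the rt-PA group carried 5 of the 6 genes past the threshold, 3 higher and 2 lower, where 22.6% of all genes were called (11% higher and 11.6% lower). Here too Sele and Selp passed the filter on low counts through the rt-PA libraries. The 2 groups did not overlap for any of the 6, as for 64.1% of all genes. Sele was 64.2-fold higher (log2 6.00, SE 0.37, adjusted p = 2.24e-05) and Selp 36-fold higher (log2 5.17, SE 0.73, adjusted p = 0.000712), and Icam1 rose by 3.62 on the log2 scale (adjusted p = 1.38e-05). Selplg fell by 2.5 (adjusted p = 6.34e-05) and Vcam1 by 1.62 (adjusted p = 0.000125). Icam2 differed by 0.68 (SE 0.22, adjusted p = 0.0296), under the 2-fold threshold.

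In rt-PA+Acu against Sham, none of the 4 genes that passed the filter was called, where 2.06% of all genes were called (263 genes). At an unadjusted p under 0.05 and a fold change over 2, 1 gene passed, Selplg, where 4.56% of all genes did, and DESeq2 also called Selplg alone. The log2 difference of Selplg was -1.07 (SE 0.34, 95% CI -1.85 to -0.29, adjusted p = 0.11; DESeq2 adjusted p = 0.0181), with every rt-PA+Acu library under every Sham library, where 30.8% of all genes did not overlap. For Icam1 it was 0.15 (95% CI -0.62 to 0.93, adjusted p = 0.818) and for Vcam1 -0.40 (95% CI -0.8 to 0, adjusted p = 0.212). Icam2 differed by -0.67 (95% CI -1.24 to -0.09, adjusted p = 0.159) with no overlap. Without rt-PA+Acu replicate 3 the Icam1 value was -0.25. Sele and Selp lay below the filter, and fitted without it their differences were 1.01 (adjusted p = 0.435) and -0.64 (adjusted p = 0.765), with 0 to 5 counts per library for Selp.

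In rt-PA+Acu against Model, 4 of 5 genes tested were called, where 14.5% of all genes were (7.9% higher and 6.62% lower). Icam2 overlapped between these groups and the other 5 did not, as for 50% of all genes. Sele fell by 3.01 (SE 0.59, adjusted p = 0.00787) and Icam1 by 3.75 (SE 0.28, adjusted p = 0.000436), while Selplg rose by 1.98 (adjusted p = 0.00718) and Vcam1 by 1.94 (adjusted p = 0.00192). Icam2 differed by -0.89 (95% CI -1.94 to 0.15, adjusted p = 0.162). Selp, below the filter, had a log2 fold change of -3.51 without it (adjusted p = 0.0279), and where leaving out a library let it pass, it was not called without rt-PA+Acu replicate 1 (adjusted p = 0.0748) or 2 (adjusted p = 0.0949) and was called without rt-PA+Acu replicate 3 (adjusted p = 0.0311) or Model replicate 1 (adjusted p = 0.0222).

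Because counts of 2 genes within a library share its depth, ratios of counts show how the genes moved against each other (pairs chosen after the values were seen, with exact two-sided permutation tests, for which 3 libraries against 3 allow no p under 0.1). Sele per Icam1 count was 0.118, 0.148 and 0.179 in Sham and 0.084, 0.189 and 0.224 in Model, and the 2 groups overlapped, with a wider spread in Model (log2 difference -0.01, exact permutation p = 0.9). It came to 0.751, 1.30 and 0.421 with rt-PA, and to 0.216, 0.140 and 0.360 with rt-PA and acupuncture. The rt-PA libraries stood above every other library, with a log2 difference of 2.28 against Model (exact permutation p = 0.1). Vcam1 per Icam1 count was 17.3, 18.5 and 20 in Sham, and 0.161, 0.259 and 0.324 in Model. The rt-PA values were 0.407, 0.748 and 0.378, and those of rt-PA+Acu 22.6, 15.2 and 6.53. Vcam1 counts thus outnumbered Icam1 counts in all 6 Sham and rt-PA+Acu libraries and in none of the others, and rt-PA lay above Model (log2 difference 1.03, exact permutation p = 0.1). Icam1 per Icam2 count was 0.836, 0.984 and 0.830 in Sham and 22.8, 16.2 and 5.70 in Model. The rt-PA values were 6.12, 5.37 and 9.74, and those of rt-PA+Acu 1.23, 1.16 and 2.28. Every rt-PA+Acu library was above every Sham library in this ratio (log2 difference 0.75, exact permutation p = 0.1). These are ratios of raw counts on genes of unlike length, so only their change between groups can be read.

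**Figure D3:**
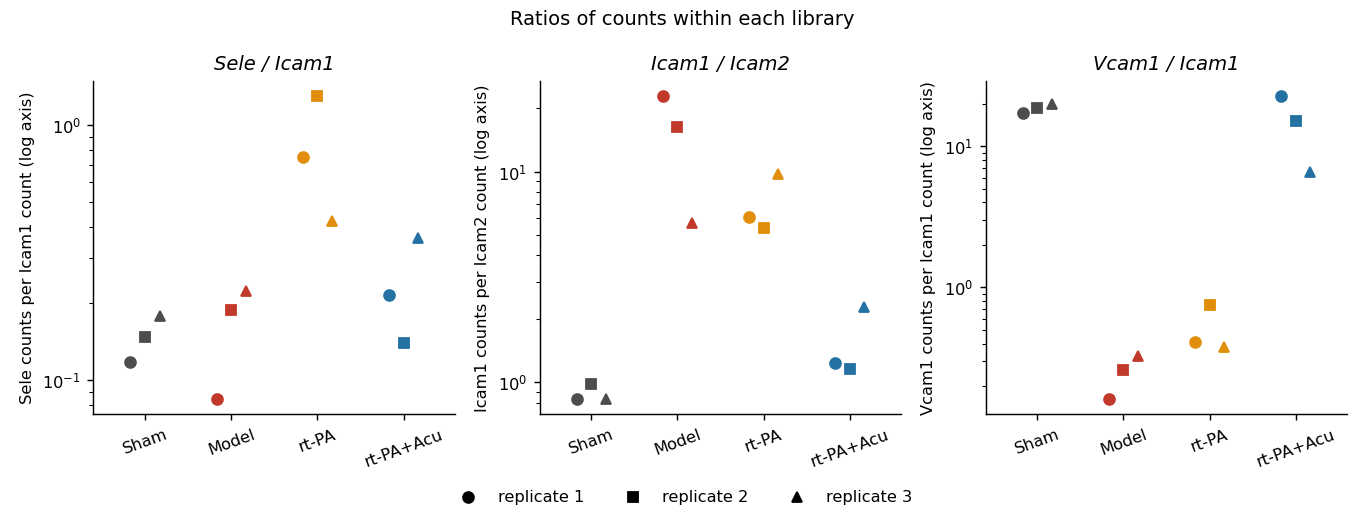
Ratios of raw counts within each library (log axes): Sele per Icam1, Icam1 per Icam2 and Vcam1 per Icam1, by group and replicate. The rt-PA libraries stand above all others for Sele per Icam1, and Vcam1 per Icam1 is above 6 in Sham and rt-PA+Acu and below 1 in Model and rt-PA.

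The endothelial marker level of the samples was followed with 9 marker genes (Pecam1, Cdh5, Kdr, Tek, Tie1, Esam, Eng, Emcn and Vwf), all detected. Their summed level was 336, 374 and 329 CPM in Sham, 368, 406 and 643 CPM for Model, 805, 573 and 583 CPM for rt-PA and 210, 209 and 244 CPM for rt-PA+Acu. The rt-PA+Acu sums lay below those of every other library. In Model against Sham 1 of the 9 rose, Kdr, from a mean of 16.4 to 117 CPM, and 1 fell, Emcn (median log2 fold change 0.35), while the means of Tek (49.2 and 34.2 CPM), Tie1 (25.7 and 23.5 CPM) and Vwf (116 and 102 CPM) were lower in Model, so that the sum is no plain measure of the number of endothelial cells. In rt-PA+Acu against rt-PA 6 of the 9 markers fell and 0 rose (median log2 fold change -1.47, against 0 over all genes), where 8.16% of all genes tested were called lower. In rt-PA+Acu against Sham 2 fell, Emcn and Pecam1, where 1.14% were called lower. Over all genes tested, 21.5% were called in Model against Sham. The members were therefore also set against this sum, with the same exact permutation test. Icam2 was 14.6, 12.7 and 12.5 per 1000 endothelial marker counts in Sham, 7.68, 10 and 14.4 in Model, 11, 13.2 and 10.2 in rt-PA and 12.1, 15.5 and 11.9 in rt-PA+Acu. On this scale the groups overlapped in all 6 comparisons, and the log2 difference of rt-PA+Acu against rt-PA was 0.21 (exact permutation p = 0.3), against a fall of 1.37 without the markers. With Kdr left out of the sum, an alternative chosen after the values were seen, this difference was 0.04 (exact permutation p = 0.7), and that of Model against Sham was 0.01 in place of -0.35.

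The selectins, Icam1 and Vcam1 were set against the same sum. Sele was 1.44, 1.84 and 1.86 per 1000 marker counts in Sham, 14.7, 30.6 and 18.4 in Model, 50.8, 92.0 and 42.0 in rt-PA and 3.22, 2.51 and 9.78 in rt-PA+Acu. No 2 of these groups overlapped, and rt-PA+Acu stood above Sham by 1.31 on the log2 scale (exact permutation p = 0.1). Icam1 was 12.2, 12.5 and 10.3 in Sham, 175, 162 and 82.0 in Model, 67.6, 70.8 and 99.8 in rt-PA and 14.9, 18.0 and 27.2 in rt-PA+Acu. Here too every rt-PA+Acu library exceeded every Sham library, by a log2 difference of 0.73 (exact permutation p = 0.1). With Cdh5 alone in place of the 9 markers, rt-PA+Acu against Sham was at 0.97 for Sele (exact permutation p = 0.3) and 0.39 for Icam1 (exact permutation p = 0.4), and the separation was lost for both. Vcam1 was 211, 230 and 207 in Sham, 28.2, 41.9 and 26.6 in Model, 27.5, 52.9 and 37.7 in rt-PA and 336, 274 and 178 in rt-PA+Acu. Its log2 difference of rt-PA+Acu against rt-PA was 2.74 (exact permutation p = 0.1), larger than the 1.2 of the fit, and rt-PA+Acu and Sham overlapped. The Model and rt-PA libraries also overlapped on this scale (log2 difference 0.27, exact permutation p = 0.6). Selp was 0.24, 1.02 and 1.33 in Sham, 1.66, 4.17 and 6.94 in Model, 22.5, 20.4 and 6.58 in rt-PA and 0, 0.836 and 1.53 in rt-PA+Acu. Vcam1 is also made outside the vessel wall in the brain, and which cells its counts came from was not tested.

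**Figure D4:**
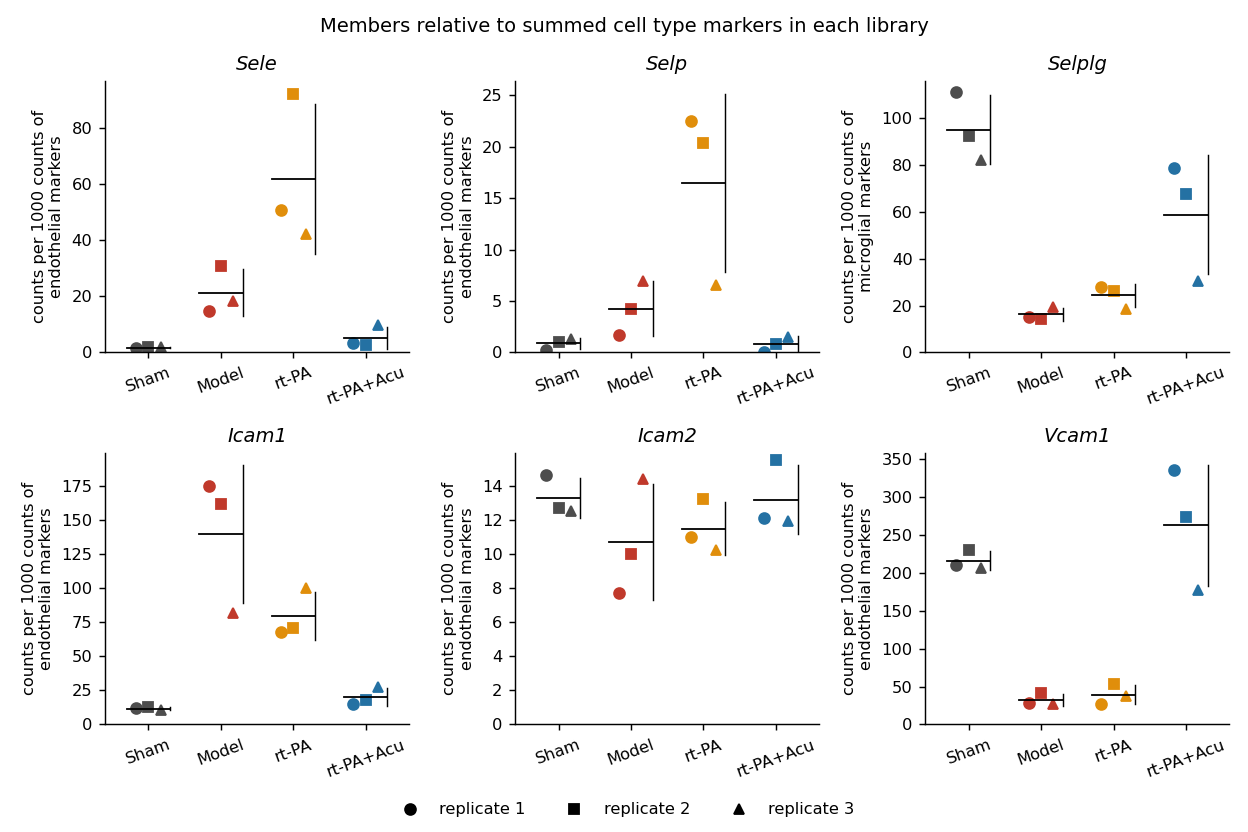
Counts of each gene per 1000 counts of the summed endothelial markers (microglial markers for Selplg) in each library, with group means and 1 SD on either side (n = 3). Icam2 overlaps between all groups on this scale, while Sele, Icam1 and Vcam1 keep their separation between the untreated or rt-PA stroke groups and Sham.

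Selplg was set against 8 microglial markers in the same way. The sum of the list was 524 to 647 CPM in Sham, 385 to 449 CPM for Model, 385 to 437 CPM for rt-PA and 424 to 478 CPM for rt-PA+Acu, a narrower span than that of Selplg itself. Per 1000 of these counts Selplg was 111, 92.3 and 82.2 in Sham, 15.0, 14.3 and 19.4 in Model, 28.1, 26.1 and 18.7 in rt-PA and 78.6, 67.5 and 30.3 in rt-PA+Acu. Model lay below Sham by 2.55 and rt-PA+Acu above rt-PA by 1.18 on the log2 scale, with no overlap (exact permutation p = 0.1 for each). The markers did not move as 1 block. In Model against Sham 4 of the 7 tested fell, where 12% of all genes tested were called lower. Among the 4 were the purinergic receptors P2ry12 (by 3.64, adjusted p = 4.31e-06) and P2ry13 (by 3.72, adjusted p = 4e-05). P2ry12 rose by 3.06 (adjusted p = 0.00133) and P2ry13 by 4.25 (adjusted p = 0.00139) in rt-PA+Acu against rt-PA, where Tmem119 was at 0.56 (adjusted p = 0.22). These single markers were picked after their values were seen. Siglech, on the list, was at 0 in every library of 3 groups.

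Blood leukocytes also make Selplg. The 11 neutrophil markers summed to 12.2 to 18.0 CPM in Sham, 89.6 to 124 CPM for Model, 122 to 155 CPM for rt-PA and 25.2 to 32.3 CPM for rt-PA+Acu, with Mpo and Elane at 3 counts or fewer in every library. Most of the sum in Model was Mmp9, a protease that other cells also make, with a mean of 5.22 CPM in Sham, 89.1 CPM for Model, 87.6 CPM for rt-PA and 22.2 CPM for rt-PA+Acu, whereas S100a8 went from a mean of 1.43 to 1.71 CPM and S100a9 from 2.56 to 3.20 CPM between Sham and Model. In Model against Sham 3 of the 6 neutrophil genes tested rose, Cxcr2, Fpr1 and Mmp9, where 9.43% of all genes tested were called higher. The 8 monocyte and macrophage markers summed to 121 to 186, 253 to 327, 397 to 634 and 110 to 134 CPM in the same order. Of these, 2 of 7 tested rose in Model against Sham, Ccr2 and Cd14, the latter from a mean of 0.826 to 91.2 CPM. These sums therefore do not give the number of blood leukocytes, whose part in the counts of Selplg was not tested. In rt-PA against Sham 6 of 7 neutrophil genes tested rose, as did 6 of 7 monocyte and macrophage genes, where 22.6% of all genes were called. In rt-PA+Acu against rt-PA 5 of 7 in each list fell and 0 rose, where 15.3% of all genes were called. S100a9 was 4.20 to 35.7 CPM in rt-PA and 0.149 to 0.927 CPM in rt-PA+Acu.

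The integrin subunits that bind the ICAM family rose in Model against Sham. Itgam and Itgb2 were already counted in every Sham library, and which cells the integrin counts came from was not tested. Itgal, the alpha chain of LFA-1, was 0.886 to 1.76 CPM in Sham, 4.05 to 7.03 in Model, 9.37 to 16.7 in rt-PA and 4.30 to 6.94 in rt-PA+Acu. Itgam, the alpha chain of Mac-1, was 7.25 to 17.1, 62.2 to 93.9, 90.1 to 127 and 27.6 to 62.8 CPM, and Itgax was 0 to 0.483, 19.3 to 30.8, 29.9 to 32.9 and 1.26 to 5.75 CPM in the same order. Their shared beta chain Itgb2 was 9.87 to 17.4, 31.7 to 51.8, 52.1 to 71.4 and 13.3 to 26.3 CPM. Of the 8 leukocyte integrins listed, 6 were tested in Model against Sham, and these 4 rose while 0 fell (log2 2.07 for Itgal, 2.45 for Itgam, 6.72 for Itgax and 1.47 for Itgb2, adjusted p from 3.79e-05 to 0.00166). Over all genes tested, 9.43% were called higher in that comparison. In rt-PA+Acu against rt-PA 5 of 7 fell and 0 rose, with Itgb7 at -3.80 beside the same 4 (adjusted p from 0.00273 to 0.0174), where 8.16% of all genes tested were called lower. Neither chain of alpha-4 beta-1, which binds VCAM-1, was called in these 2 comparisons. Itgb7, also listed among the members' binding partners, was below the filter in Model against Sham. It was 0 to 0.0805 CPM in Sham and 0.305 to 1.32 CPM in Model, with no overlap. Itga4 was 2.71 to 5.32 CPM in Sham, 2.20 to 2.73 in Model, 3.54 to 5.76 in rt-PA and 2.19 to 2.84 in rt-PA+Acu, with a log2 fold change of -0.79 in Model against Sham (adjusted p = 0.0693) and -0.84 in rt-PA+Acu against rt-PA (adjusted p = 0.0578). Its partner Itgb1 was at 0.66 (adjusted p = 0.0021) and -0.94 (adjusted p = 0.00181), under the 2-fold threshold in both. Itgb1 thus had the sign of Itgal, Itgam, Itgax and Itgb2 in both comparisons, and Itga4 in the second only. Whether the chains of the 2 kinds of integrin differed from each other was not tested.

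In rt-PA+Acu against Sham, none of the 4 members tested (Selplg, Icam1, Icam2 and Vcam1) was called, and Sele and Selp lay below the filter. Of the 6 leukocyte integrins tested in this comparison, 3 were called higher, where 0.916% of all genes were called higher. Itgal differed by 2.11 (adjusted p = 0.017), Itgam by 1.69 (adjusted p = 0.043) and Itgax by 3.82 (adjusted p = 0.0483), while Itgb2 differed by 0.46 (95% CI -0.21 to 1.12, adjusted p = 0.377). Cd44, a hyaluronan receptor that also carries selectin-binding sugars, was 6.28 to 8.64 CPM in Sham, 192 to 327 for Model, 242 to 327 for rt-PA and 22.2 to 88.4 for rt-PA+Acu. It rose by 5.07 in Model against Sham (adjusted p = 6.4e-06), fell by 2.59 in rt-PA+Acu against rt-PA (adjusted p = 0.00909) and was called above Sham in rt-PA+Acu at 2.64 (adjusted p = 0.0335). Whether these differences from Sham exceed those of the selectin and adhesion genes was not tested.

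The other genes of leukocyte capture were described with 8 lists of 80 genes, of which 75 were counted and St3gal4, Cd99, Cd99l2, Aoc3 and Msn are not analysed here. The counts of each list stand beside 21.5% of all genes called in Model against Sham and 15.3% in rt-PA+Acu against rt-PA. In Model against Sham 21 of 66 tested rose and 5 fell (median log2 fold change 0.61, against 0.01 over all genes), the median in rt-PA against Model was 0.35, and in rt-PA+Acu against rt-PA 3 of 71 rose and 37 fell (median -1.12). Model against Sham and rt-PA+Acu against rt-PA share no library. Of the 66 genes tested in both, 43 were higher in the first and lower in the second, 13 were lower and then higher, and 10 had the same sign in both. The same split was not counted over all genes, so these signs cannot be read as particular to leukocyte capture.

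Of the cytokine and transcription control list, 9 of 17 rose and 0 fell in Model against Sham (median 1.12), and 15 of 19 fell and 0 rose in rt-PA+Acu against rt-PA (median -1.56). Il1b, an inflammatory cytokine that induces endothelial adhesion molecules, rose by 4.40 (adjusted p = 0.00817) and fell by 5.21 (adjusted p = 0.00163). Its level was 0 to 0.483 CPM in Sham, 0.916 to 6.01 in Model, 4.35 to 15.1 in rt-PA and 0.224 to 0.337 in rt-PA+Acu. Il6 rose by 3.57 (adjusted p = 0.00439) and fell by 4.35 (adjusted p = 0.00324). The receptor Il1r1 rose by 1.47 (adjusted p = 3.6e-05) and fell by 1.98 (adjusted p = 0.00849), and the cytokine Il1a, below the filter in Model against Sham, fell by 3.25 with acupuncture (adjusted p = 0.00339).

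Among the Weibel-Palade body genes, the store from which P-selectin is released, 2 of 6 rose in Model against Sham and 3 fell in rt-PA+Acu against rt-PA (medians -0.03 and -0.57). Angpt2, a vessel-destabilizing ligand kept in these bodies, was 1.91 to 4.19 CPM in Sham, 8.02 to 24.0 in Model, 16.2 to 32.1 in rt-PA and 2.09 to 2.61 in rt-PA+Acu. It rose by 2.56 (adjusted p = 0.00189) and fell by 3.37 (adjusted p = 0.00104). Cd63, a membrane protein of these bodies and of lysosomes in many cells, rose by 2.25 (adjusted p = 6.02e-06) and fell by 1.43 (adjusted p = 0.00492). Vwf, their main cargo, was at -0.18 in Model against Sham (adjusted p = 0.433) and fell by 1.04 in rt-PA+Acu against rt-PA (adjusted p = 0.00273).

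Selectin ligands and the enzymes that build their sugars were mixed. Of the ligand list, 1 of 7 rose and 2 fell in Model against Sham (median -0.25), and 1 of 8 rose and 4 fell in rt-PA+Acu against rt-PA (median -0.9). Cd34, a sialomucin of endothelium, went the way of Selplg and Vcam1, since it fell by 1.57 (adjusted p = 0.000546) and rose by 1.22 (adjusted p = 0.0393). Spn, a leukocyte sialomucin, fell by 2.01 in rt-PA+Acu against rt-PA (adjusted p = 0.0219). Of the glycosylation and sulfation list 3 of 10 rose and 1 fell in Model against Sham (median 0.75), and 2 of 10 fell in rt-PA+Acu against rt-PA (median -0.38). Fut7, the fucosyltransferase of leukocyte selectin ligands, rose by 2.38 (adjusted p = 0.0141) and was at -1.77 with acupuncture (adjusted p = 0.0567). B4galt1 rose by 1.42 (adjusted p = 0.00361) and fell by 1.86 (adjusted p = 0.00487), Fut4 rose by 1.03 (adjusted p = 0.0269) and fell by 1.19 (adjusted p = 0.0167), and the sulfotransferase Chst2 fell by 1.13 (adjusted p = 0.000389) and was at 0.63 with acupuncture (adjusted p = 0.107).

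Of the other adhesion and junction molecules of the vessel wall, 1 of 9 rose and 1 fell in Model against Sham (median 0.15), and 1 of 9 rose and 5 fell in rt-PA+Acu against rt-PA (median -1.19). The endothelial Pecam1 was at 0.65 (adjusted p = 0.185) and then fell by 1.9 (adjusted p = 0.00104), and Cdh5, the cadherin of endothelial junctions, was at 0.62 (adjusted p = 0.0533) and fell by 1.61 (adjusted p = 0.00296). Mcam rose by 1.25 (adjusted p = 0.00284) and fell by 1.78 (adjusted p = 0.00259). Icam5, the ICAM of neurons, fell by 2.06 (adjusted p = 7.04e-06) and rose by 1.53 (adjusted p = 0.00381). Of the integrin activation list 0 of 6 rose and 1 fell in Model against Sham (median 0.36), and 1 of 7 rose and 2 fell in rt-PA+Acu against rt-PA (median -0.64). Rasgrp2, a Rap exchange factor of platelets that is also made in the brain, fell by 3.94 (adjusted p = 0.000209) and rose by 2.03 (adjusted p = 0.00784), while Fermt3 was at 0.85 (adjusted p = 0.0191) and then fell by 1.24 (adjusted p = 0.0328) and Tln1 fell by 1.00 with acupuncture, just past the threshold. Of the shedding and anchoring list 1 of 5 rose in Model against Sham, Ezr by 1.49 (adjusted p = 0.000219), and 1 of 5 fell in rt-PA+Acu against rt-PA, Adam8 by 1.30 (adjusted p = 0.0063), with medians of 0.26 and -0.54.

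**Figure D5:**
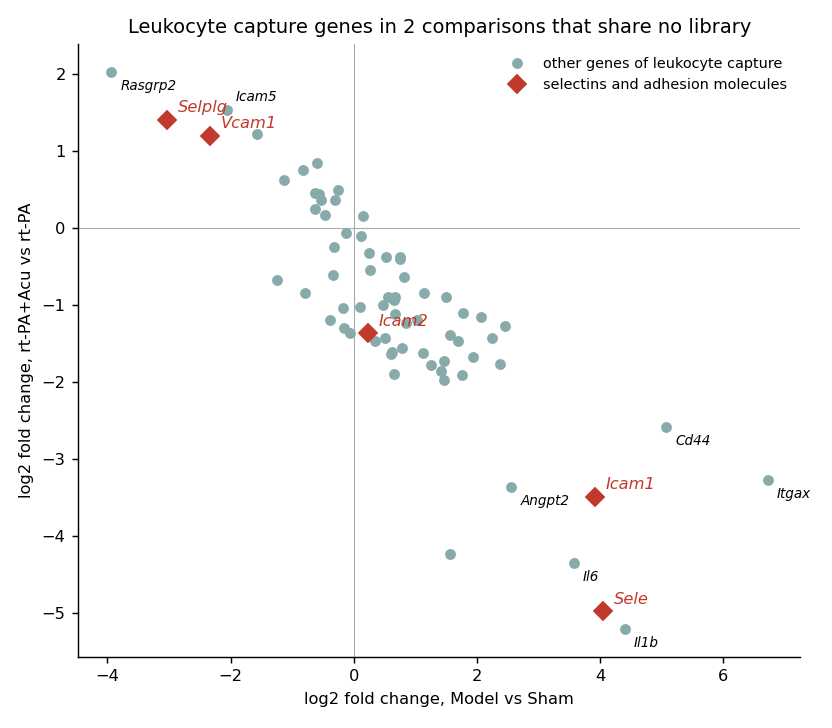
Log2 fold change in Model against Sham (horizontal) against that in rt-PA+Acu against rt-PA (vertical) for the tested genes of leukocyte capture (dots) and for 5 of the 6 selectin and adhesion genes (diamonds, Selp being below the filter in Model against Sham). Of the dots 43 lie in the lower right and 13 in the upper left quadrant. The same split was not counted over all genes.

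Across the 12 libraries the 6 genes fell into different patterns, given here as correlations of log2 CPM that describe these libraries and share their groups. Sele and Selp ran together (Pearson r = 0.94), as did Selplg and Vcam1 (r = 0.93), and Icam1 ran against Vcam1 (r = -0.94). Icam2 was closest to Selp (r = 0.83). Among 12738 genes at a mean of at least 1 CPM, those most like Sele were Fndc3b (r = 0.987), Nfkb1 (r = 0.981) and Flii (r = 0.979), and those most like Selp were Myo1c (r = 0.974), Col4a2 (r = 0.971) and Vat1 (r = 0.968). The endothelial junction gene Esam stood first for Icam2 (r = 0.977), before Lama5 (r = 0.972) and Nfkbia (r = 0.959). Icam1 was most like Pax1 (r = 0.996), Tgfb1 (r = 0.994) and P4hb (r = 0.994), Vcam1 most like Sh3bgrl (r = 0.989), Plxdc2 (r = 0.986) and Yipf1 (r = 0.984), and Selplg most like Prom1 (r = 0.985), Nat8f1 (r = 0.984) and Gatb (r = 0.981). With Spearman's rho in place of Pearson's r, at most 1 of these 3 genes stayed among the first 3 of each.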

How the data were processed

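The authors sequenced cortical mRNA as paired-end reads, aligned them to mRatBN7.2 with STAR 2.7.10a and deposited whole-number counts per gene, made with Salmon 1.9.0 on uniquely mapped pairs with the Ensembl annotation. The submitters' processing notes also list featureCounts 2.0.1, without its role. The strand setting and the use of the molecular identifiers in the adapters are not given in the sources used here, and limits from counts therefore hold for counting error alone. The deposited counts carry no normalization and are given per sample, and groups came from the labels.

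Fits took the 6 libraries of the 2 groups compared and were run in R 4.3.3 with edgeR 4.0.16 (TMM, filterByExpr, glmQLFit and glmQLFTest, Benjamini-Hochberg over all genes tested, calls at an adjusted p under 0.05 and a fold change over 2), where the study used DESeq2. Library totals were 11678450 to 13616935 and TMM factors 0.9476 to 1.077. Standard errors are the log2 fold change divided by the square root of F, and intervals are at 95%. When 200 genes were changed by 4-fold in simulated counts, the fits recovered 87.5% to 97% and made 6 to 10 false calls. Log2 CPM for correlations had a prior count of 2. Marker ratios are log2 of counts plus 0.5 over summed marker counts plus 0.5, tested over libraries with an exact two-sided permutation test (Python 3.11.15).

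The 6 genes, the pathway and marker lists and the tests were chosen with earlier results of these data known. Named besides the 6 genes are their binding partners (some listed genes are not reported here), up to 4 called genes of each list with the largest change in Model vs Sham or rt-PA+Acu vs rt-PA, and for each gene the 3 with the highest correlation. Alternatives were DESeq2 1.42.0, scaling by RLE or by library size, a filter of 1 count in all or of 10 counts per library, a joint fit of the 12 libraries, a replicate block, p without adjustment, calls on p alone, a pseudocount of 2, a single marker gene, and leaving out each library in turn. Gene positions on the build of the counts and protein sequences are not used here.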

Additional observations from a re-analysis of the deposited data

How the results depend on the processing

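Of the fold changes of the 6 genes under the alternatives, 428 kept their direction and side of the threshold, 7 gained a call, 4 lost one (Selplg in rt-PA+Acu against rt-PA, given with that comparison) and 2 reversed. The count of genes called moved in 6 cases. In rt-PA against Model it was 2 with DESeq2 and 2 with an unadjusted p, against 0, and over these alternatives the log2 fold change of Sele lay between 1.7 and 2.24 with adjusted p from 1.27e-05 to 0.598, and that of Selp between 1.79 and 3.28 with adjusted p from 0.0372 to 0.709. In rt-PA against Sham it was 3 with at least 10 counts in every library, against 5, since that filter left 4 of the 6 genes. In rt-PA+Acu against Sham it was 1, Selplg, with DESeq2, with the replicate block and with an unadjusted p, against 0. The cause was not tested. Leaving out 1 library at a time gave 4 to 5 genes called in Model against Sham, 0 to 0 in rt-PA against Model, 5 to 6 in rt-PA+Acu against rt-PA, 5 to 5 in rt-PA against Sham, 0 to 0 in rt-PA+Acu against Sham and 4 to 5 in rt-PA+Acu against Model. Over all genes the counts called were 2511 to 3133, 0 to 3, 1445 to 2510, 2708 to 3206, 82 to 359 and 1391 to 2305 in the same order.

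Replicate numbers recur in each group. The deviations of same-numbered libraries correlated at -0.26 to 0.14 in 18 pairs, with 3 above 0.1 and 6 of the libraries' best matches on their own number. In Model against Sham all 3 libraries matched best on their own number, at 0.05 to 0.11. Such low correlations over 3 libraries per group cannot show whether the numbers mark a pairing. With the replicate number as a block, the log2 difference of Selplg in rt-PA+Acu against Sham was -1.16 (adjusted p = 0.0376), and the block changed no other count of the 6 genes.

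The reversals were all of small differences. Without Model replicate 3 Icam2 was at -0.41 in Model against Sham (0.23 with it, up to 0.54 without another library), and without rt-PA+Acu replicate 3 Icam1 was at -0.25 in rt-PA+Acu against Sham (0.15 with it, up to 0.37 without another library). Per marker count in rt-PA+Acu against Sham, Selp (-0.25) was at 0.2 with a pseudocount of 2, 0.66 without rt-PA+Acu replicate 1 and 0.15 without Sham replicate 3, with a lowest value of -0.87 without another library. Icam2 (-0.01) was at 0.01 with a pseudocount of 2, 0.04 without rt-PA+Acu replicate 1, 0.06 without rt-PA+Acu replicate 3 and 0.06 without Sham replicate 1, with a lowest value of -0.13. Vcam1 (0.23) was at -0.11 with a single marker gene, and Icam2 in rt-PA against Model (0.14) was at -0.08 without Model replicate 1 and up to 0.37 without another library. With Kdr left out of the endothelial list, chosen after seeing the data, Icam2 was at 0.01 in Model against Sham (-0.35), -0.05 in rt-PA against Model (0.14) and -0.01 in rt-PA+Acu against Model (0.34). The other 339 marker ratios kept their direction. Over all genes the count called in rt-PA+Acu against Sham was 263, 426 with DESeq2, 583 with an unadjusted p, 651 with no fold threshold and 82 to 359 without 1 library. In rt-PA against Model it was 0, 82 with DESeq2 and 241 with an unadjusted p, and with no fold threshold the counts were 6951 against 2765 in Model against Sham, 4522 against 1993 in rt-PA+Acu against rt-PA, 7127 against 2940 in rt-PA against Sham and 4411 against 1866 in rt-PA+Acu against Model. Depth limits Selp in Sham and rt-PA+Acu, where libraries held 0 to 5 counts, and Sele there, at 6 to 32 counts.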
